A study of Mus musculus with 2 samples.

Results

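The 8 genes described here encode the precursors of neuropeptides that are known from the adrenal medulla: Npy, Penk, Cartpt, Gal, Vip, Adcyap1, Tac1 and Adm. They were taken by symbol, with no use of their signal, and make up 8 of the 21911 protein-coding genes of the mouse annotation. Chromatin accessibility had been measured by DNase-seq, in which the nuclease DNase I cuts open chromatin and leaves peaks of cut sites, in the intact adrenal gland, cortex and medulla together, of female B6CASTF1/J mice at an age of 36 days. This strain is an F1 hybrid whose parents are C57BL/6J and the wild-derived CAST/EiJ. The study has 1 group of 2 libraries, biological replicates 1 and 2, which come from differently numbered animals under the same donor record. There was no other condition to compare with, and the values therefore stand as descriptions of these libraries without a p-value.

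Chromaffin cells store catecholamines together with peptides in dense-core granules and release both when the splanchnic nerve fires. Enkephalins act on opioid receptors, neuropeptide Y and adrenomedullin act on vessels, and pituitary adenylate cyclase-activating polypeptide (PACAP) and vasoactive intestinal peptide (VIP) raise cyclic AMP through related receptors. Several peptide genes carry a cyclic AMP response element (CRE) near their start, and REST, a repressor of neuronal genes outside neurons, binds the element called RE1. CTCF is a factor that binds insulators and the anchors of chromatin loops.

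In all that follows, the height of a peak is the signal value the authors gave it, a promoter peak is one that reaches within 1 kb of a transcription start site (TSS), and a distal peak has its centre over 1 kb from every annotated TSS. The domain of a gene is its body and 50 kb on each side, cut short where another protein-coding TSS comes first. Footprints are the authors' short stretches protected from cutting. Positions are on mm10 (GRCm38), counted from 1, and the bases are those of the RefSeq copy of that reference, not of the CAST/EiJ chromosome. Errors are SDs over the 2 replicates.

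The sequences that carry the results are shown first, read 5′ to 3′. The first set holds stretches like RE1 that lay inside the promoter peaks of 3 members, and every base of them lay in a footprint of at least 1 replicate, as the capitals mark. The Vip stretch is at chr10:5639306-5639325 on the plus strand, in the first exon. The Cartpt stretch is at chr13:99900624-99900643 on the minus strand. The Adcyap1 stretch is at chr17:93198412-93198434 on the plus strand, upstream of the gene, and holds the arms of RE1 set 8 bases apart in place of the usual 2.
Vip: TTCAGCACCCTAGACAGCTG
Cartpt: TCCAGAACCATGGAGAGCTC
Adcyap1: TTCAGCACCAAGAGCCTGGACAG

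The second set compares CTCF-like stretches of 12 bases from distal peaks of 4 members, picked because each lay wholly in a footprint in both replicates, as the capitals mark. They are at chr10:5600275-5600286 (plus strand) for Vip, chr7:110630350-110630361 (minus strand) for Adm, chr17:93158646-93158657 (plus strand) for Adcyap1 and chr19:3451402-3451413 (minus strand) for Gal.
Vip: CCACTAGATGGC
Adm: CCAGCAGGGGGC
Adcyap1: CCACAAGGTGGC
Gal: ACACTAGAGGGC

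The third set gives the tallest promoter peak of the set, that of Adm at chr7:110627541-110627690, and the tallest distal peak, downstream of Adm at chr7:110630261-110630440, both on the plus strand. The first was ended 30 bases into the exon. Capitals mark bases in a footprint of either replicate, 60 of 150 in the promoter and 66 of 180 in the downstream peak. The long footprint of the downstream peak, 34 bases in both replicates, spans the CTCF-like stretch, which is read here on the other strand.
Adm promoter: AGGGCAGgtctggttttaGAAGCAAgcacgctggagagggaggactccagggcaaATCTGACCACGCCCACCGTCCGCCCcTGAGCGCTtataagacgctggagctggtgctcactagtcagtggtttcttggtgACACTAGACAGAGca
Adm downstream: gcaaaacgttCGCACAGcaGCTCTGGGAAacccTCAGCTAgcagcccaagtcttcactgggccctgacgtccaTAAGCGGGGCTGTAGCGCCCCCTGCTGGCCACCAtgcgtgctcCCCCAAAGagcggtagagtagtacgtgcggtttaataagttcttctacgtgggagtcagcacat

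The last of the sequences is the start of Vip at chr10:5639118-5639247 on the plus strand. Its capitals mark no footprints but the CRE core TGACG, whose first base lies at -79 from the start, and the TATA box TATAAA at -30.
Vip start: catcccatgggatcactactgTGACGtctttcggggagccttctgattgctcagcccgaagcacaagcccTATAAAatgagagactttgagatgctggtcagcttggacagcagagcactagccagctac

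Most of the 8 genes had an accessible promoter of low height. In each replicate 7 of the 8, or 87.5%, had a promoter peak, where 68.6% of all protein-coding genes had one in replicate 1 and 69.6% in replicate 2. The median promoter height of the 8 was 1.20 in replicate 1 and 1.54 in replicate 2, while the medians over all genes, with 0 for a gene with no peak, were 2.96 and 4.45. Of the 8 genes, 7 lay below the gene median in each replicate. Adm was the 1 above it, and Tac1 the 1 with no peak. Among genes with a promoter peak alone the medians were 6.98 and 10.2, and every member, Adm included, lay below them.

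Markers of the gland were read beside the members. Promoter peaks were present at 9 of 12 chromaffin markers in replicate 1 and at 10 in replicate 2, with median heights of 0.813 and 1.08 and summed heights of 35.9 and 57.2. The 9 cortex markers had peaks at 8 and 7 genes, medians of 6.15 and 9.07 and summed heights of 46.3 and 68.4. Among the chromaffin markers the tallest were Slc18a1 (17.8 and 25.5) and Chgb (10.4 and 17.0). Ddc was at 0 in both replicates and Pnmt in replicate 1. Among the cortex markers Hsd3b1 was at 0 in both replicates and Mc2r in replicate 2. Among markers of other cell types, 6 and 7 of 7 endothelium markers in replicates 1 and 2 and all 4 capsule markers in each had a promoter peak, as did 2 and 3 of 5 Schwann and sustentacular markers and 1 and 3 of 4 macrophage markers. The markers of central neurons, which the gland should lack, had peaks at 3 of 4 genes in each replicate, with median heights of 1.02 and 1.59, above those of the chromaffin markers. With 68.6% and 69.6% of all genes at a promoter peak, these counts do not show which cell types were present. In a whole gland, fewer cells of a type and less accessibility per cell cannot be told apart, and which cells gave a member's peak was not tested.

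**Figure D1:**
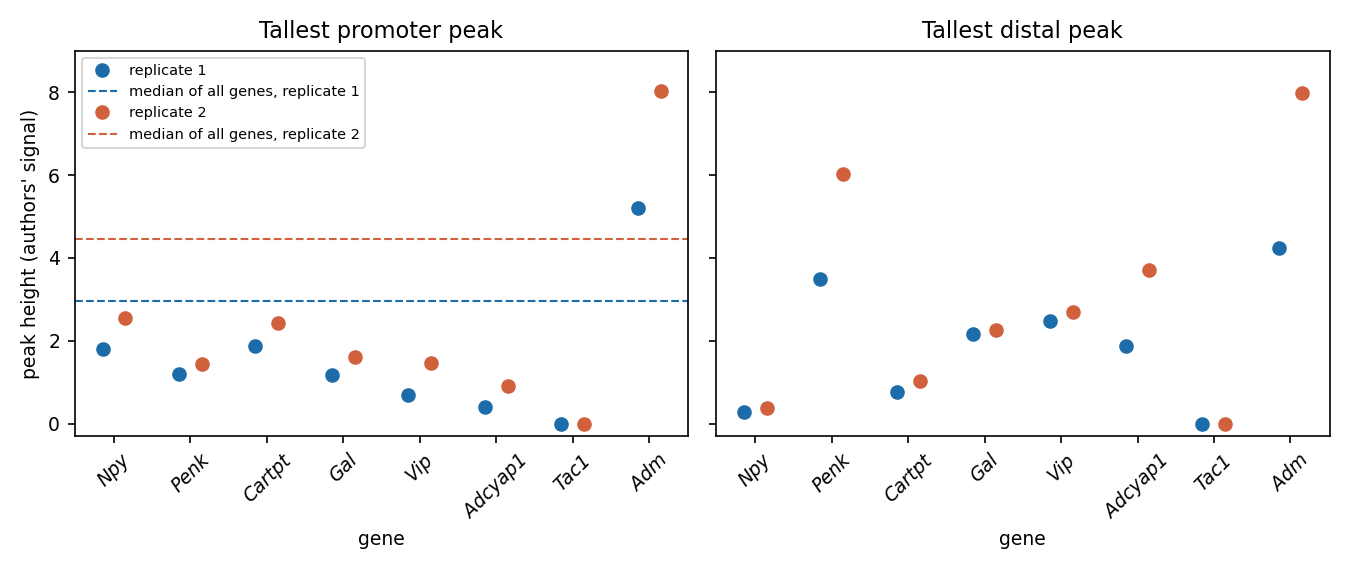
Height (authors' signal, linear axis) of the tallest promoter peak and of the tallest distal peak of each of the 8 genes, 1 point per replicate, with 0 where there is no peak. Dashed lines are the median promoter heights over all protein-coding genes, 2.96 and 4.45. The left panel shows Adm alone above both lines, and the right panel shows Penk, Gal, Vip and Adcyap1 with a distal peak taller than their promoter peak.

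Npy, the precursor of neuropeptide Y, a vasoconstrictor released with noradrenaline, lies at chr6:49822710-49829507 on the plus strand. Its main promoter peak, at chr6:49822501-49822800 in replicate 1, covered the TSS and reached 1.81 in replicate 1 and 2.55 in replicate 2, a mean of 2.18 ± 0.522 (SD, n = 2). These heights were above those of 44.6% and 44.4% of all genes, with 0 for a gene with no peak. Each replicate had a small second peak in the promoter window that the other did not share, 0.617 high upstream of the TSS in replicate 1 and 0.247 high inside the gene in replicate 2. The main peak was thus the 1 peak of Npy found in both libraries. The domain of 106.8 kb held few other peaks, with 1 distal peak of 0.280 in replicate 1 and 3 in replicate 2 of at most 0.371.

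Penk, the precursor of the enkephalins, lies at chr4:4133531-4138819 on the minus strand. Its tallest promoter peak, at chr4:4138761-4138880, had heights of 1.21 and 1.44 in replicates 1 and 2, or 1.32 ± 0.165 (SD, n = 2). The centre lay 0.344 kb upstream of the TSS at 4138477. The peak covered the upstream end of the gene at 4138819, where a transcript outside the basic annotation starts. Farther upstream stood a taller peak. At 1.80 kb upstream of the TSS, at chr4:4140181-4140380, the height was 3.49 in replicate 1 and 6.02 in replicate 2. This distal peak was the tallest of Penk in both libraries, and it lay in an intron of the noncoding gene A830012C17Rik, which overlaps Penk. Each replicate had 4 distal peaks in the domain of Penk, and 3 of them were matched between the replicates, the others being 7.27 kb downstream (0.523 and 1.06) and 42.2 kb upstream (0.710 and 0.618).

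Cartpt, the precursor of the peptides called cocaine- and amphetamine-regulated transcript, lies at chr13:99898489-99901091 on the minus strand and has 2 annotated TSSs. Its promoter peak at chr13:99900541-99900720 was at the same position in both replicates, with heights of 1.88 and 2.43 (2.15 ± 0.388, SD, n = 2). The peak covered the downstream TSS at 99900641, and no peak covered the upstream one at 99901091. The RE1-like stretch shown above lies across that downstream TSS and was touched by 2 footprints in replicate 1 and 1 in replicate 2. Its distal peaks, 5 in replicate 1 and 4 in replicate 2, were low and far off, the tallest reaching 0.757 and 1.02. The nearest of them was 39.7 kb from a TSS of Cartpt.

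Gal, the precursor of galanin, lies at chr19:3409915-3414544 on the minus strand. Its promoter peak at chr19:3414421-3414620 covered the TSS at heights of 1.19 and 1.62 (1.40 ± 0.303, SD, n = 2). There were 4 distal peaks in replicate 1 and 6 in replicate 2, and all 4 of replicate 1 had a partner in replicate 2. The tallest, 36.9 kb upstream at chr19:3451341-3451500, had heights of 2.16 and 2.25, and holds the CTCF-like stretch shown above. The next, 4.88 kb upstream at chr19:3419321-3419520, had heights of 1.64 and 2.14. Both thus exceeded the promoter peak in each replicate.

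**Figure D2:**
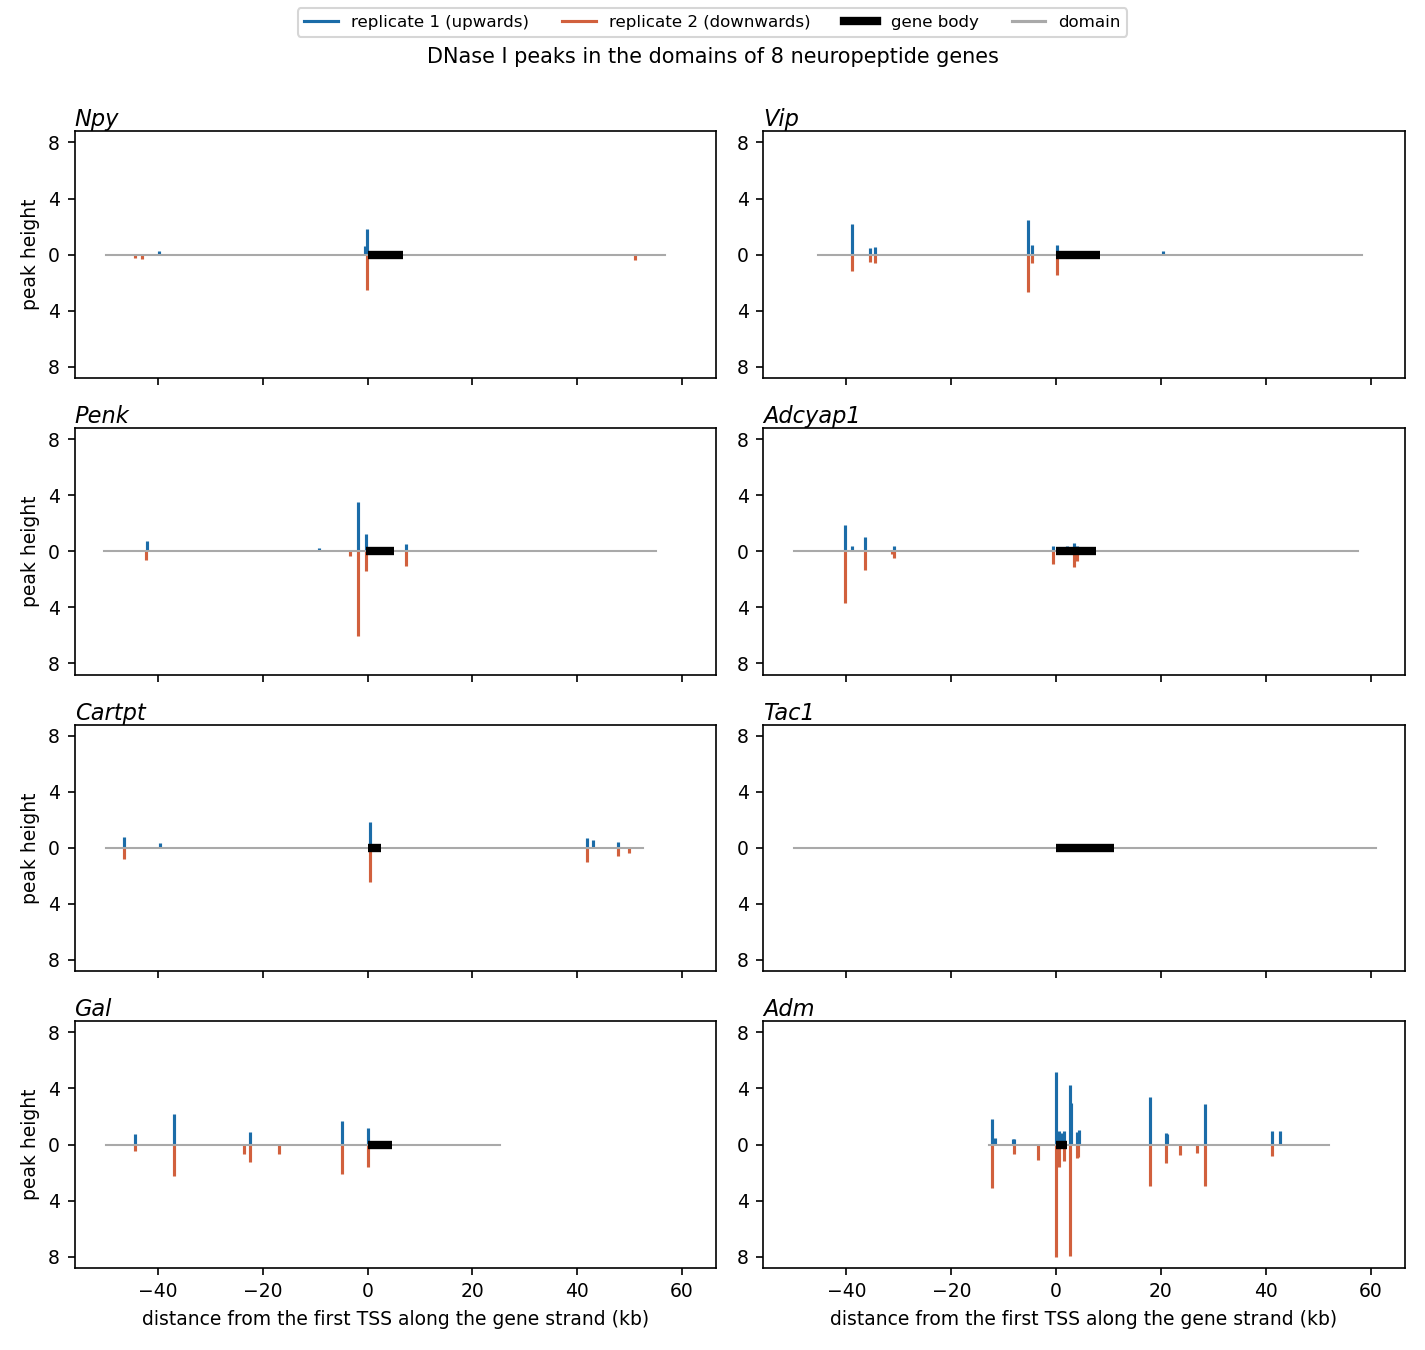
Every peak in the domain of each of the 8 genes, placed by its distance (kb) from the most upstream TSS along the strand of the gene, with height in the authors' signal drawn upwards for replicate 1 and downwards for replicate 2. The black bar is the gene and the grey line the domain. Tac1 has no peak, the tallest peak of Npy is at the TSS, and Adm has the most, 15 distal peaks in replicate 1 and 12 in replicate 2.

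Vip and Adcyap1 encode the related peptides VIP and PACAP, the second of which is the main transmitter that sustains catecholamine release under stress. Both had low promoters with a taller distal peak. Vip lies at chr10:5639218-5647617 on the plus strand. Its promoter peak at chr10:5639221-5639380 had heights of 0.691 in replicate 1 and 1.47 in replicate 2, or 1.08 ± 0.553 (SD, n = 2). It began just inside the first exon, so that neither the TSS nor the CRE core and TATA box shown above lay in a peak. The RE1-like stretch of Vip is centred 98 bases after the TSS, inside the peak, and differs from the RE1 consensus at 3 of 18 letters. A footprint covered it in replicate 2, and none touched it in replicate 1.

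The tallest peak of Vip was 5.37 kb upstream, at chr10:5633761-5633940, with heights of 2.48 and 2.69 in replicates 1 and 2. A second tall peak, 38.9 kb upstream at chr10:5600201-5600380, had heights of 2.18 and 1.17. It lies in an intron of Myct1, the gene whose TSS bounds the domain, and holds the CTCF-like stretch under a footprint in both replicates. This was a peak that was lower in replicate 2, whereas the median shared peak was higher there.

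Adcyap1 lies at chr17:93199017-93206537 on the plus strand. Its promoter peak had heights of 0.402 and 0.918 (0.660 ± 0.365, SD, n = 2), the lowest of the 7 promoters with a peak in both replicates. It was centred 0.599 kb upstream of the first TSS, at chr17:93198365-93198480, and covered no TSS. The lowest listed false discovery rate in the promoter window was 0.0207 in replicate 1 and 0.000224 in replicate 2. In its middle stood the RE1-like stretch with its arms set apart, touched by 1 footprint in replicate 1 and 2 in replicate 2. The tallest peak in the domain, 40.4 kb upstream at chr17:93158561-93158740, had heights of 1.88 and 3.70. Another, 36.4 kb upstream, had 0.990 and 1.31. Inside the gene a peak over an exon, centred 3.17 kb after the TSS, had 0.579 and 1.12. With start sites outside the basic annotation included, this exon peak counted as the tallest promoter peak of Adcyap1 in both replicates.

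Tac1, the precursor of substance P and neurokinin A, lies at chr6:7554879-7565834 on the plus strand. It had no peak, promoter or distal, in its domain of 111.0 kb in either replicate. The table of false discovery rates listed 9 bp of the domain under 0.05 in replicate 1, all in the promoter window and at lowest 0.0483. It listed none in replicate 2. Of the 8401 genes with a domain of at least 100 kb, 6.94% in replicate 1 and 5.93% in replicate 2 had no peak at all. The promoter of Tac1 was the richest in CpG of the members in the RefSeq promoter table, with an observed over expected ratio of 1.01, above 94.4% of promoters. Among genes of like CpG ratio, the highest of 5 equal groups, 98.5% in replicate 1 and 98.7% in replicate 2 had a promoter peak, with median heights of 10.2 and 15.0. Neither library showed a peak at Tac1 at its depth, which does not show that no cell of the gland had it open.

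Adm encodes adrenomedullin, a vasodilator peptide first found in a tumour of chromaffin cells and made by endothelium and many other cells as well. It lies at chr7:110627661-110629820 on the plus strand. Its promoter peak had heights of 5.20 in replicate 1 and 8.03 in replicate 2, or 6.61 ± 2.01 (SD, n = 2), above 58.8% and 59.4% of all genes. Genes with no peak count as 0 there, and among genes with a promoter peak the median heights were 6.98 and 10.2. A second promoter peak inside the gene had 0.953 and 1.60. The domain is the shortest of the 8, 64.9 kb, and stops at Sbf2 on the left. It held 15 distal peaks in replicate 1 and 12 in replicate 2, more than 88.5% and 80.8% of all genes had. Per 100 kb that is 23.1 and 18.5 distal peaks, where the medians over all genes were 5.78 and 6.

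The tallest distal peak of Adm, centred 2.69 kb after its TSS, had heights of 4.24 and 7.99, close to those of the promoter itself. It lies past the end of Adm in an intron of the antisense gene Gm28863. A neighbour of 2.96 at chr7:110630481-110630680 was called in replicate 1 and had no partner in replicate 2. Farther downstream stood peaks at 17.9 kb (3.42 and 2.98) and 28.4 kb (2.90 and 2.95). The markers of endothelium, which is known to make adrenomedullin, had 6 and 7 of 7 promoter peaks, with medians of 1.19 and 1.41 and summed heights of 11.5 and 16.0. Their part in the peaks of Adm was not tested.

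By promoter height the order differed little between the libraries. Adm was the highest and Tac1 the lowest in both. Cartpt and Npy came next after Adm, at 1.88 and 1.81 in replicate 1 and at 2.43 and 2.55 in replicate 2, and changed places between the replicates. Penk (1.21 and 1.44) and Gal (1.19 and 1.62) likewise changed places, and Vip (0.691 and 1.47) lay between Penk and Gal in replicate 2. By the mean the order was Adm, Npy, Cartpt, Gal, Penk, Vip, Adcyap1 and Tac1. Apart from Adm and Npy, Cartpt and Gal, and Adcyap1 and Tac1, the neighbours in this order differed by less than the larger of their SDs. Because heights were generally larger in replicate 2, these SDs include that shift and do not measure how firm the order is within a library. Vip was above Adcyap1 (0.402 and 0.918) in both libraries.

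Promoter composition set a further frame for these heights. When 16522 genes were put into 5 equal groups by CpG ratio, from low to high, Npy, Gal and Adcyap1 fell in group 3, whose median height was 5.09 in replicate 1 and 7.65 in replicate 2. Cartpt fell in group 4, with medians of 9.15 and 13.8. These 4 genes were therefore below the median of their group in both libraries. Vip and Adm fell in group 2, with medians of 0 and 0.194. Adm was above 87.4% and 87.9% of that group, and Vip above 59.8% and 66.2%.

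A distal peak taller than the promoter peak was present at 4 members, Penk, Gal, Vip and Adcyap1, the same 4 in each replicate. The shares among all genes with a promoter peak were 27.2% for replicate 1 and 27.5% for replicate 2. Those genes have domains of all lengths and taller promoters, with median heights of 6.98 and 10.2, so the shares are not for genes like these 4. The 8 domains together held 41 distal peaks in replicate 1 and 38 in replicate 2, of which Adm gave 15 and 12. Medians per gene were 4.5 and 4 for the members and 4 and 5 over all genes, whose domains have all lengths. The 6 members with a domain of at least 100 kb, all but Gal and Adm, had from 0 to 6 distal peaks in replicate 1 and from 0 to 5 in replicate 2, where the median over all genes with such domains was 9 in each. Per 100 kb, 7 members lay below the median of all genes in replicate 1 and 6 in replicate 2, Adm being above it in both and Gal in replicate 2. In replicate 1 Vip (5.778) and Adcyap1 (5.580) were close to that median of 5.783. Of the 51 peaks of replicate 1, promoter and distal, 72.5% overlapped a peak of replicate 2, and of the 47 of replicate 2, 76.6% overlapped one of replicate 1. Over all peaks these shares were 80.2% and 76.2%. The peaks without a partner were low, with median heights of 0.420 and 0.371, against 0.934 and 1.21 for the shared ones.

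Heights were generally larger in replicate 2, also at the 7 members with a promoter peak. Over 14779 genes with a promoter peak in both, the median log2 ratio of promoter height, replicate 2 over replicate 1, was 0.57, with quartiles at 0.44 and 0.70. The ratio was 0.26 for Penk, 0.37 for Cartpt, 0.44 for Gal, 0.49 for Npy and 0.63 for Adm. Vip and Adcyap1 stood above the others at 1.09 and 1.19. Of the 7, 3 lay between the quartiles, 2 below and 2 above. Among the 1581 genes with a mean promoter height from 0.5 to 1.5, the median was 0.43, and 5.00% lay above Vip and 3.67% above Adcyap1. With 2 libraries a difference between animals cannot be told apart from one between preparations.

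The peaks of the members held 72 footprints in replicate 1 and 75 in replicate 2. At least 1 footprint lay in 68.6% and 78.7% of the members' peaks, where 74.0% and 72.2% of all peaks had one. Adm had the most footprints, 23 in each replicate, and Tac1 had none. Penk had 10 and 12, Gal 10 and 9, Vip 8 and 9, Npy 4 and 6. Cartpt and Adcyap1 differed more between the replicates, with 11 and 4 for Cartpt and 6 and 12 for Adcyap1. Inside shared peaks, 53.2% of the members' footprints in replicate 1 overlapped a footprint of replicate 2 and 48.5% the other way, against 58.4% and 58.0% over all footprints. A single footprint of a member was therefore matched in the other library in about as many cases as it was not.

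**Figure D3:**
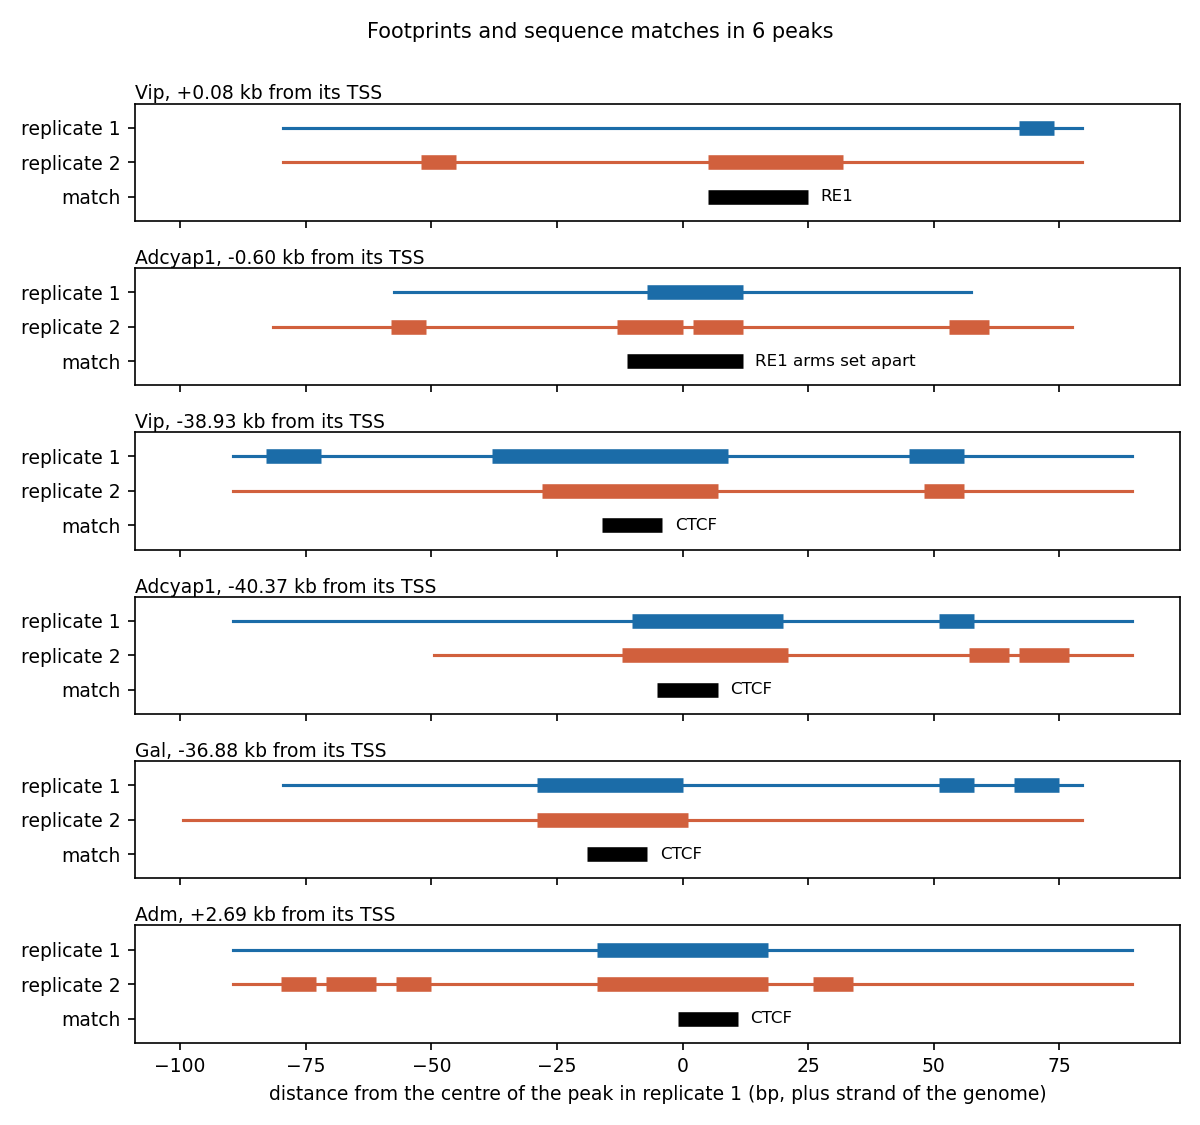
Footprints (thick bars) in 6 peaks of the members (thin lines), by distance in bp from the centre of the peak in replicate 1, with the stretch like RE1 or CTCF drawn in black. A footprint lay over the CTCF-like stretch in both replicates in the 4 distal peaks, and over the RE1-like stretch of Vip in replicate 2 only.

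Sequence matches were counted on both strands beside the same count over all promoters or peaks, and a match is a description of letters, not a site. RefSeq promoters of 300 bases were at hand for 7 members, all but Penk, and the table held 32851 promoters in all. Adcyap1 has 2 promoters there, so that the 7 members had 8, and a member is counted where any of its promoters held the letters, while the shares are per promoter. The CRE core TGACG stood in 5 of the 7, Cartpt, Gal, Vip, Adcyap1 and Tac1, and in 20.8% of all promoters. The full CRE TGACGTCA, which contains that core on both strands, stood in Cartpt alone and in 1.79% of all. The Sp1 box GGGCGG stood in 5, Npy, Cartpt, Gal, Tac1 and Adm, and in 35.7% of all. The TATA box TATAAA stood in Vip and Adcyap1 and in 13.6% of all. The AP-1 letters TGACTCA or TGAGTCA and the SF-1 letters AAGGTCA stood in none of the 7, and in 5.20% and 4.72% of all. The E-box CACGTG and the homeodomain letters TAATTA stood in Tac1 alone, and in 7.15% and 5.29% of all. The core of the hypoxia response element, ACGTG, which the E-box contains, stood in Adcyap1 and Tac1 and in 19.6% of all, and the GATA letters AGATAA or TGATAA stood in the same pair and in 18.6%. Tac1, with no peak in either library, thus had matches to 6 of these motifs.

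RE1, searched as 18 letters with up to 4 mismatches, stood in none of the members' 8 promoters of that table but in promoter peaks of Vip and Cartpt. These were 2 of the 10 promoter peaks of the members in replicate 1 and 2 of 9 in replicate 2, where 1.22% and 1.20% of all peaks within 1 kb of a TSS had a match. The match of Vip had 3 mismatches and that of Cartpt 4. The form with its arms set apart, searched after the Adcyap1 sequence was seen, stood in the promoter peak of Adcyap1 and in 32 of 34518 such peaks in replicate 1 and 33 of 36694 in replicate 2. A search shaped on 1 sequence finds that sequence, and nothing is read from its count. The search of 18 letters also matched distal peaks, 1 of the members' 41 in replicate 1 and 2 of 38 in replicate 2. Of all distal peaks, 0.871% and 0.950% had a match. The 2 distal stretches, of Vip and Penk, had 4 mismatches each. No footprint touched that of Penk, and a footprint of replicate 2 alone covered 5 bases of that of Vip.

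The CTCF consensus, also searched after the sequences were seen and as 12 letters with up to 1 mismatch, stood in 22.0% of the members' distal peaks in replicate 1 and 28.9% in replicate 2, where 15.7% and 15.4% of all distal peaks had it. The tallest distal peaks of Adm, Gal and Adcyap1 held it in both replicates, and that of Cartpt in replicate 2. Tall peaks held it more often in general: among all distal peaks at least as tall as that of Adcyap1 the shares were 29.0% and 34.3%. The tallest distal peaks of Penk and Vip, 1.80 kb and 5.37 kb upstream, had no match. Taking the best stretch of each peak, the members had 11 different CTCF-like stretches at distal peaks. Of these, 8 were touched by a footprint in both replicates, 5 of them wholly covered in both, and 3 were touched in neither. The last were that of the Gal peak 4.88 kb upstream, a stretch of Gal without mismatch 23.6 kb upstream, and that of Npy, which lay just outside its peak. The peaks of the last 2 were called in replicate 2 alone. The same share was not counted for CTCF-like stretches over all distal peaks, so nothing about the members is read from these counts.

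Receptors for these peptides also had mostly low promoters. Of 20 receptor and receptor-partner genes, 18 in replicate 1 and 20 in replicate 2 had a promoter peak. Among all protein-coding genes the shares with one were 68.6% and 69.6%. The median heights of the 20 were 0.888 and 1.38. The tallest were Vipr1, a receptor for both VIP and PACAP (4.51 and 7.95), the neurokinin receptor Tacr2 (3.06 and 4.78) and Npy4r, a receptor of the NPY family (2.22 and 4.14). Adcyap1r1, the specific PACAP receptor, had a promoter height of 0.869 and 1.09 and 16 distal peaks in each replicate. The medians over all genes, whose domains have all lengths, were 4 and 5 distal peaks. The adrenomedullin receptor Calcrl (1.92 and 2.74) and its partner Ramp2 (2.43 and 3.13) lay below the gene median in both libraries. Npy1r, the vascular receptor of NPY, had 1.82 and 1.57, and the enkephalin receptor Oprd1 had 0.561 and 0.600. Of the galanin receptors, Galr1 had 0.355 and 0.424, Galr2 had 0 and 0.618, and Galr3 had 0 and 1.16.

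Among 22 other peptide precursors, 12 in replicate 1 and 13 in replicate 2 had a promoter peak. Over all protein-coding genes the shares were 68.6% and 69.6%. The median heights of the 22 were 0.434 and 0.432. The tallest were Vgf, a granule peptide precursor (13.0 and 18.3), Crh, the precursor of corticotropin-releasing hormone (3.91 and 7.93), and Scg2, secretogranin II of dense-core granules (3.14 and 7.82). In both libraries 9 of the 22 had no promoter peak, among them Tac2, which like Tac1 encodes a tachykinin, and Adm2, a relative of Adm. Tac2 had 7 distal peaks in each replicate, unlike Tac1, which had none.

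**Figure D4:**
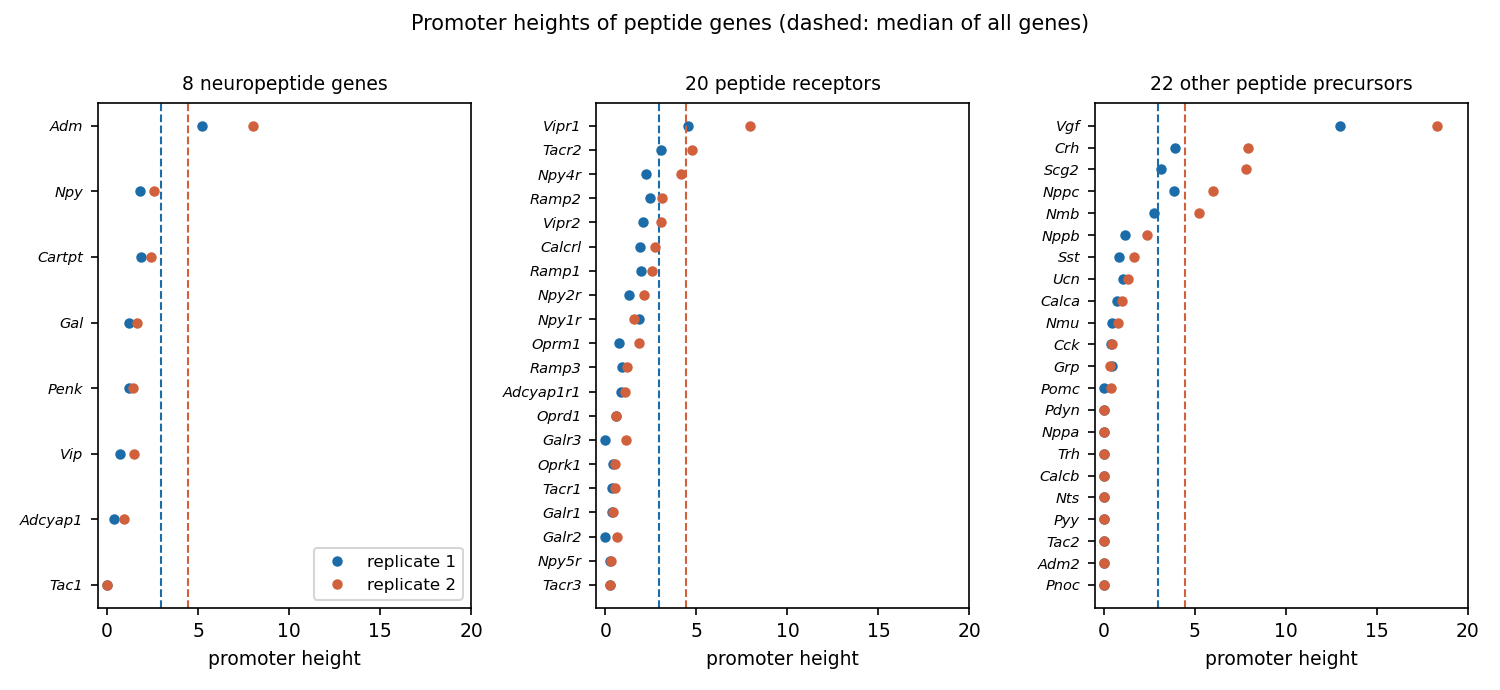
Promoter heights (authors' signal, linear axis) of the 8 neuropeptide genes, 20 peptide receptors and 22 other peptide precursors, 1 point per replicate, ordered by the mean of both. Dashed lines are the medians over all protein-coding genes, 2.96 and 4.45. Adm, Vipr1, Tacr2, Vgf and Crh are among the genes near or right of the lines, and most genes of each list lie left of them.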

How the data were processed

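DNase-seq libraries from 2 adrenal glands, 1 group, were analysed as deposited. Per the labels and a text the authors deposited, each file was made on mm10 from the library's own alignments. Which aligner, peak caller and thresholds were used is not given in the sources used here. Peak heights deposited by the authors are a signal, scaled in a way not stated, in steps of 0.00934 and 0.00883. The deposited false discovery rates are q-values listed under 0.05, and the p-value column of the deposited footprints held the constant 0.01. Of the 2 peak lists per library the longer was used (157595 and 166206 peaks). Read depth is unknown, so heights carry no counting interval.

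The 8 members were matched by symbol to the GENCODE M21 basic annotation, and peaks were assigned to promoters and domains with Python 3.11.15, numpy 2.4.6, pandas 2.3.3 and matplotlib 3.10.9, in code tested on simulated peaks. Footprints were counted by their centre. Sequences came from RefSeq promoters (250 bases before to 50 after the start, GRCm38.p6) and the reference genome, and peaks were searched in 300 bases around their centre and promoters over their full length. Members, lists, motifs and alternatives were chosen with earlier results of these data known. CTCF and the RE1 arms 3 to 20 bases apart (15 letters, no mismatch) were added after sequences were seen. Named are all members, and from the other lists the 3 tallest by mean, the partners of a member and bounding or neighbouring genes. Tac2, Adm2, Ddc, Pnmt, Slc18a1, Chgb, Hsd3b1 and Mc2r were named after their values were seen, and 1 marker gene is not reported by name here. No test was run, with 1 group of 2 libraries. The alternatives were the shorter list, other windows, flanks, overlaps and scales, and each replicate left out.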

Additional observations from a re-analysis of the deposited data

How the results depend on the processing

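The number of members with a promoter peak, 7, became 6.5 with the shorter list, 6 with windows of 0.5 kb and 5.5 for peaks at or above the median height, as means of both replicates, and was unchanged under the other settings run. The median promoter height, the mean of both replicates, was 1.37, and 1.76 with promoter windows of 2 kb, which take in the tall upstream peak of Penk (4.76). The mean promoter height of Adcyap1, 0.660, fell to 0 with windows of 0.5 kb and was 0.850 with the comprehensive annotation, which brings in the peak over its exon. Mean distal peaks were 39.5, and became 19 with the shorter peak list, 15.5 and 80.5 with flanks of 10 kb and 100 kb, 17 for peaks at or above the median height, and 26 without Adm, which was chosen after seeing the data, as was the comprehensive annotation. Mean footprints were 73.5, and 40 and 142.5 with flanks of 10 kb and 100 kb. The share of peaks found in both replicates was 74.6%, and 83.0% with the shorter list, 82.4% and 79.5% with those flanks, and 71.5% with an overlap of 50%. The median log2 height ratio of shared peaks, replicate 2 over replicate 1, was 0.39, and 0.59 and 0.34 with those flanks, and 0.24 with heights divided by the median of all peaks. Leaving out either replicate gave median promoter heights from 1.20 to 1.54, distal peaks from 38 to 41 and footprints from 72 to 75. More or fewer peaks counted follow from the construction of flanks and lists. For the other settings the cause was not tested. No paired analysis was possible because there is 1 group.

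The small number of libraries, the whole gland and the unknown read depth limit these values. Low peaks were found in both libraries less often than tall ones, and footprints agreed in about as many cases as not.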
